A study of Mus musculus with 12 samples.

Results

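Gene expression was compared in embryoid bodies of 2 mouse embryonic stem cell lines at 2 stages of differentiation, to find the genes whose course from day 3 to day 5 differed between the lines. Both lines are C57BL/6. Line 4_1 is Gcn5fx/fx, with Gcn5 floxed and present, and line 4C2 is Gcn5-/-. They are called floxed and null here. Each line was sampled at day 3 and at day 5 with 3 libraries, so that all 12 libraries of the series entered the comparison. The series text speaks of duplicates, while the labels give 3 samples a group. With 1 line per genotype, line and genotype cannot be told apart, and nothing says that the libraries came from separate cultures, so the p-values measure the spread between these libraries, which may be technical. The quantity reported is the genotype by day interaction, the log2 change from day 3 to day 5 in null minus the same change in floxed. A negative interaction means that the null course ran below the floxed course, whether by a smaller rise or a deeper fall. Of 18269 genes listed, 17000 had a mean of at least 10 normalised reads in at least 1 of the 4 groups and were tested, and 1269 fell below. A gene was called at a limma adjusted p under 0.05.

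Gcn5, encoded by Kat2a, is a histone acetyltransferase that works within the SAGA and ATAC coactivator complexes. Embryoid bodies are aggregates in which embryonic stem cells leave pluripotency, pass through an epiblast-like state and begin to form germ layer derivatives, a step in which FGF signals act through the kinase ERK and are limited by feedback inhibitors such as the Sprouty proteins. The transcription factor Myc, which with FGF signalling is a named subject of the series, binds the E-box sequence CACGTG and is known for driving ribosome, nucleotide and polyamine synthesis. In bulk samples such as these, fewer cells of a type and less RNA per cell cannot be told apart.

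Recovered reads per library ranged from 23090915 to 29446068 in floxed and from 18022071 to 26803369 in null embryoid bodies. The first principal component held 60.2% of the variance and separated the days, and the second held 14.5% and separated the lines. Along the third (5.89%), the libraries numbered 3 stood apart from the others except that of floxed day 3. Summed markers of the pluripotent and epiblast state, all 6 of them listed, ranged from 36740 to 49778 normalised reads in floxed and from 32644 to 43015 in null libraries at day 3. They ranged from 15612 to 21764 and from 11421 to 14623 at day 5. The 4 neural markers summed to between 1031 and 3612 in floxed and between 684 and 1372 in null libraries at day 3, and to 4367 to 7634 and 2154 to 3524 at day 5. Feeder fibroblast markers, 5 of 6 listed, summed to at most 342 in floxed and 501.0 in null libraries, and Lum was not in the table. The 2 of 4 erythroid markers listed summed to at most 90.9. The 4 streak and mesoderm markers summed to 175 to 218 in floxed and 207 to 224 in null libraries at day 3, and to 375 to 834 and 185 to 238 at day 5. The 5 markers of visceral and parietal endoderm summed to between 106 and 199 in all libraries at day 3, and to 321 to 1672 in floxed and 690 to 1073 in null libraries at day 5. The 2 of 4 trophoblast markers listed summed to at most 113 at day 3 and to 289 to 664 in floxed and 283 to 483 in null libraries at day 5. Pluripotent and neural sums thus moved with day in both lines, and streak sums in floxed alone. Each of these sums overlapped between the lines at day 3 and was lower in null at day 5. Within the streak set Mixl1 went the other way, with means of 26.3 in floxed and 45.1 in null at day 3 and 13.5 and 21.1 at day 5. Within the pluripotent set Pou5f1, Nanog, Utf1 and Dnmt3b fell with day in both lines. Sox2 means went from 2292 to 3369 in floxed and from 2095 to 1992 in null. Those of Fgf5 went from 219 to 224 in floxed and from 92.3 to 109 in null. Endoderm and trophoblast sums rose with day in both lines. Mean feeder sums at day 5 were 281 in floxed and 425 in null. Of the feeder markers, Col1a1 alone was higher in null, with day 5 means of 161 in floxed and 336 in null. Col3a1 (29.3 and 11.8), Thy1 (29.7 and 24.2), Postn (24.1 and 22.7) and Dcn (36.9 and 30.1) were lower in null. The part of these markers in the results below was not tested.

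Same-numbered floxed and null libraries deviated together within a day. Same-numbered libraries of a line also correlated across days, at 0.08 to 0.21 in floxed and 0.12 to 0.28 in null. A block across all samples called 443 genes, against 1188 with the block within each day. The within-day block is given beside the genes and lists described below whose calls it alters. Members it alone called are named after their values were seen.

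Promoter sequences of 3 called genes show the E-box search that goes with Myc as a subject of the series. Each runs from 250 bases before to 50 bases after the annotated start, 5′ to 3′ on the gene's strand, from RefSeq on GRCm38.p6, with the motif CACGTG in capitals. The motif is its own reverse complement, so that 1 search covers both strands. The window of Odc1, the ornithine decarboxylase that opens polyamine synthesis and a textbook Myc target, was chr12:17544623-17544922 and held no match. Aldh18a1 (chr19:40588414-40588713), which makes the proline and ornithine precursor, held 1 match whose first base was at -59 from the start. Igf2r (chr17:12769657-12769956), the receptor that clears IGF2, held matches at -48 and -7. The latter pair was chosen after the search.
Odc1: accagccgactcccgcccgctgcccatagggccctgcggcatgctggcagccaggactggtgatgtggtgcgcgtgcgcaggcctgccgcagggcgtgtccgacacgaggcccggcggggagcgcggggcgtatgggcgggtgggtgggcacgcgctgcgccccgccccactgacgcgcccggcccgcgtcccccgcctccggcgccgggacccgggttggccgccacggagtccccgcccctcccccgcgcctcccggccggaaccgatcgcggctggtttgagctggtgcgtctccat
Aldh18a1: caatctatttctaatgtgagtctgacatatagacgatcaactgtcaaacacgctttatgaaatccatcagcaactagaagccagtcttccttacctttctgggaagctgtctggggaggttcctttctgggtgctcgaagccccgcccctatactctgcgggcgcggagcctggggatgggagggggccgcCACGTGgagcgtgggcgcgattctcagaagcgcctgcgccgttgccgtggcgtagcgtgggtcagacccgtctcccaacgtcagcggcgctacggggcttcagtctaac
Igf2r: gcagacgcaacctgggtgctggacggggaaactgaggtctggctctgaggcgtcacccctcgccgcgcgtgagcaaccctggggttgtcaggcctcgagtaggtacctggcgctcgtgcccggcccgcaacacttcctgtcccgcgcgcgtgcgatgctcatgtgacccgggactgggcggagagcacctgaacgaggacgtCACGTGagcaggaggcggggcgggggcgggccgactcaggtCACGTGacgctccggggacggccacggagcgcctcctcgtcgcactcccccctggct
Among called genes with a negative interaction, 4 of 30 with a RefSeq promoter held the motif (13.3%), and among those with a positive one 2 of 33 (6.06%). The share was 11.4% over the 11859 tested genes with an entry and 8.09% over all 27025 genes with an entry. A gene with more than 1 promoter entry was counted if any of them held the motif. In the ribosome biogenesis list 12 of 43 genes with an entry had it (27.9%), and in the polyamine and nucleotide synthesis list 6 of 22 (27.3%). Of the other lists searched, cholesterol and fatty acid synthesis had it in 4 of 20 genes and DNA replication in 6 of 31 (19.4%). The integrated stress and unfolded protein response list had it in 3 of 28 (10.7%). A match describes letters in a window and not a bound site.

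Kat2a (ENSMUSG00000020918.14, chromosome 11, 100704746 to 100712465) was read first, as a check of the labels. Floxed libraries had 2078, 2226 and 2379.8 normalised reads at day 3 and 2161, 2391 and 2071 at day 5, given here and below in the order of replicates 1 to 3. Null libraries had 649, 614 and 840.5 at day 3 and 739, 852 and 860.2 at day 5. All 6 null libraries lay below all 6 floxed ones, and the reads that remain cannot be placed inside or outside the deleted part, because the file holds 1 value per gene. The Kat2a interaction of 0.24 ± 0.16 was not called (adjusted p = 0.540). Its paralog Kat2b encodes PCAF (ENSMUSG00000000708.14, chromosome 17, 53566861 to 53672720). At day 3 Kat2b had 1519.9, 1542 and 1232 normalised reads in floxed libraries and 1421, 1769.9 and 1594 in null ones. By day 5 the Kat2b values were 995, 674 and 883 in floxed and 1695, 1712 and 1856 in null libraries. The lines overlapped at day 3, and at day 5 every null library was above every floxed one. The interaction of 0.90 ± 0.19 missed the threshold (adjusted p = 0.0595) and passed it with the replicate block within each day (adjusted p = 0.00878). Without a block, Kat2b was called in 2 of the 12 fits that left out 1 library.

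The courses of 81 genes differed between the lines, 0.476% of those tested. The null course ran above the floxed course for 42 of them (0.247%) and below it for 39 (0.229%). At an unadjusted p under 0.05 there were 2412 of the 17000 genes tested, 1088 above and 1324 below 0, and DESeq2 called 511. Counts of list members given below by either measure are to be read beside these. With the replicate block within each day, limma called 1188 genes (6.99%), 519 with a positive (3.05%) and 669 with a negative interaction (3.94%), and all 81 were among them. Without the libraries numbered 3 it called 35, 12 positive and 23 negative, and 22 of the 81 were among them. Without those libraries and with the block it called 372, including 67 of the 81. On the log2 scale, each of the 81 kept its sign in every analysis that gave it a value. The block within each day returns the same log2 interaction, and the other analyses reuse the libraries by which the genes were chosen. The kept sign is therefore no independent check. The median size was 1.18 on the log2 scale for positive and 0.98 for negative interactions, against a median SE of 0.23 over all genes. Stx16, Rims1 and Bcat1 stood just inside the threshold (adjusted p = 0.0477, 0.0470 and 0.0470), and Zbtb4, Adm and Hsd17b11 just outside it (0.0509 each). The block called the latter 3 as well (adjusted p = 0.0118, 0.00135 and 0.0180).

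Most of the change between days was shared. Day 5 differed from day 3 for 7094 genes in floxed (41.7%) and for 7571 in null (44.5%), of which 5115 were called in the same direction in both lines and 25 in opposite directions. Across genes, which are not replicates, both courses correlated at r = 0.851. Between the lines, 1041 genes differed at day 3 (6.12%, with 4.09% higher and 2.03% lower in null) and 4509 at day 5 (26.5%). Of the 42 genes with a positive interaction, 20 fell in floxed with no called course in null, 7 rose in null alone, 10 were called in the same direction in both lines and 5 in opposite directions. Of the 39 with a negative interaction, 16 were called in the same direction in both, 9 fell in null alone, 9 rose in floxed alone and 5 were called in opposite directions. The lines differed at day 5 alone for 35 of the positive and 29 of the negative genes, at both days for 6 and 9, and at day 3 alone for 1 of each. These are Gm17131 and Slc1a4. At day 5 the null mean was higher for all 42 positive genes and for none of the 39 negative ones. The libraries of the lines did not overlap at day 5 for 41 and 39 of them, against 42.0% of all genes, and at day 3 for 18 and 20, against 27.9%. These genes were chosen by an interaction that holds the line differences at both days in the same libraries. The counts by day and the day 5 directions follow in part from that choice and are no separate support. The plot of both courses shows the called genes on either side of the diagonal.

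**Figure D1:**
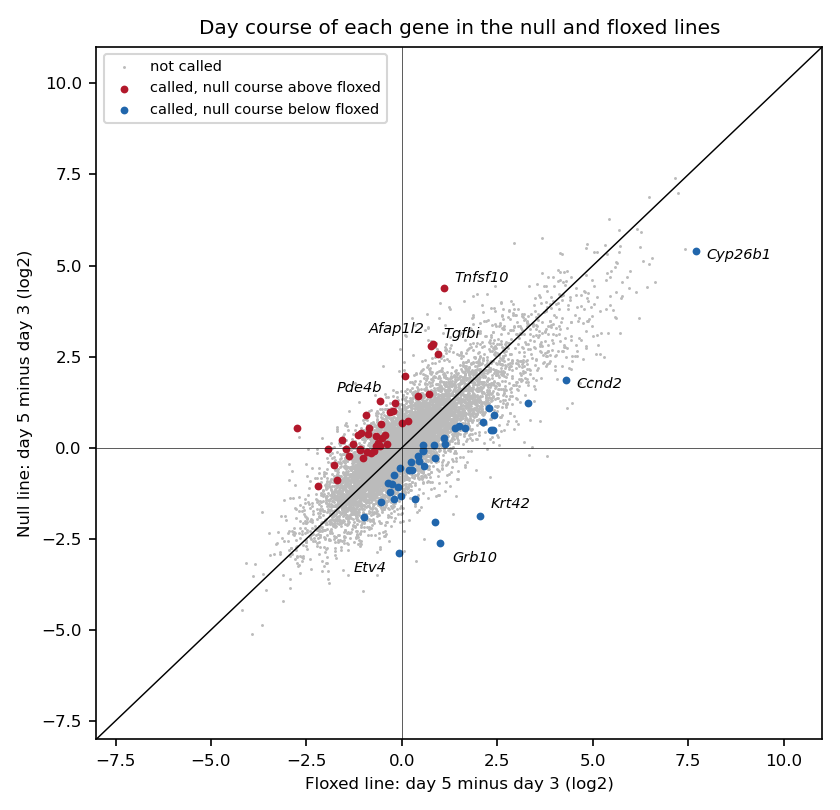
Log2 change from day 3 to day 5 in floxed (x axis) and in null (y axis) for each of the 17000 tested genes, where the diagonal marks equal courses. The 42 genes called with a null course above the floxed one are red and the 39 below it blue, and 9 called genes are named.

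Grb10 had the interaction with the smallest p of all genes. Grb10 (ENSMUSG00000020176.17, chromosome 11, 11930508 to 12038683) is an imprinted gene whose adaptor protein restrains insulin and IGF receptor signalling. Floxed libraries had 10255, 9649 and 13357 normalised reads at day 3 and 17999.9, 25136 and 23248 at day 5. Null libraries had 1479.8, 1544 and 1013 at day 3 and 245, 209.7 and 193 at day 5. It rose in floxed (0.998 ± 0.17 on the log2 scale, adjusted p = 5.65e-04) and fell in null (-2.61 ± 0.17, adjusted p = 1.35e-06), with no overlap between the lines at either day. The interaction of -3.61 ± 0.25 (adjusted p = 2.92e-05) remained called in all 12 fits that left out 1 library, with a largest adjusted p of 3.06e-04. Igf2r (ENSMUSG00000023830.13, chromosome 17, 12682406 to 12769664) was the other called gene of 40 tested imprinted genes. Floxed libraries had 7564, 8134 and 8763 at day 3 and 9326, 10084 and 8469 at day 5. Null libraries had 6876, 5726 and 6936 at day 3 and 4350.4, 4137 and 4295 at day 5. Igf2r fell in null (-0.61 ± 0.09, adjusted p = 1.50e-04), while its floxed course of 0.19 ± 0.09 was not called, and the lines did not overlap at either day. Its interaction was -0.79 ± 0.12 (adjusted p = 0.0308), called in 6 of the 12 leave-one-out fits, with an adjusted p of up to 0.0805 (without floxed day 3 replicate 2). It overlaps the antisense RNA Airn, and whether counting used the strand is not given in the sources used here. Over the imprinted list, 15 interactions were above and 25 below 0 with a median of -0.20, and the block added Usp29, Peg12, Cdkn1c and Ndn, each below 0.

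Etv4 and Spry1 were the called genes among 24 tested ERK targets and feedback genes. Both are induced by FGF signalling, Etv4 as an ETS transcription factor and Spry1 as a Sprouty inhibitor of receptor tyrosine kinases. Floxed libraries had 256, 293 and 268 normalised reads of Etv4 (ENSMUSG00000017724.14, chromosome 11, 101769742 to 101785371) at day 3 and 236, 153 and 472 at day 5. Null libraries had 448, 493 and 453 at day 3 and 93.8, 35.0 and 72.2 at day 5. At day 3 every null library was above every floxed one, and at day 5 below. Etv4 fell in null (-2.89 ± 0.37, adjusted p = 5.90e-05) with no called course in floxed, and its interaction was -2.81 ± 0.52 (adjusted p = 0.0368). It stayed called in 2 of 12 leave-one-out fits (largest adjusted p = 0.0989, without floxed day 3 replicate 1). For Spry1 (ENSMUSG00000037211.12, chromosome 3, 37639947 to 37644598), floxed libraries had 405, 412 and 386 at day 3 and 964, 752 and 947 at day 5. Null libraries had 389.8, 394 and 367 at day 3 and 422, 349.5 and 481 at day 5. The day 3 values overlapped, and by day 5 Spry1 had risen in floxed alone (1.14 ± 0.13, adjusted p = 2.13e-05). Its interaction was -1.03 ± 0.18 (adjusted p = 0.0345), called in 4 of 12 leave-one-out fits (largest adjusted p = 0.0915, without floxed day 3 replicate 1). It overlaps Gm42922 on the opposite strand. Over the list, 17 of 24 interactions were below 0, the median was -0.40, and the block called 8 below 0 and 2 above. Those below were Etv4, Etv5, Spry1, Spry2, Spred1, Dusp1, Dusp4 and Ccnd1, and those above were the immediate early genes Egr1 and Fos. Without the libraries numbered 3 the block called 6.

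The other FGF genes named whatever their result were not called. Spry4 (ENSMUSG00000024427.6, chromosome 18, 38586247 to 38601415), a further Sprouty inhibitor, had 247, 362 and 262 normalised reads at day 3 and 411, 205 and 402 at day 5 in floxed libraries. Null libraries had 175, 258 and 144 at day 3 and 194, 88.5 and 89.1 at day 5. Day 3 values overlapped and day 5 values did not (interaction -0.87 ± 0.48, adjusted p = 0.443). Dusp6 (ENSMUSG00000019960.7, chromosome 10, 99263231 to 99267489), the ERK phosphatase, had 1802, 1832 and 1896 at day 3 and 2967, 1840.1 and 3033 at day 5 in floxed libraries. Null libraries had 1057, 1274 and 1113 at day 3 and 1322, 1476 and 1455 at day 5. Every null library of Dusp6 lay below every floxed one of its day, and the interaction was -0.16 ± 0.21 (adjusted p = 0.795). Fgf5 (ENSMUSG00000029337.2, chromosome 5, 98254184 to 98277030), the ligand typical of primed epiblast, had 228, 241 and 188 at day 3 and 262, 135 and 275 at day 5 in floxed libraries. Null libraries had 79.4, 115 and 82.3 at day 3 and 142, 68.7 and 115 at day 5. The lines overlapped at day 5 alone. The Fgf5 interaction was 0.22 ± 0.42 (adjusted p = 0.864). It changed sign when floxed day 5 replicate 2 (-0.11) or null day 5 replicate 1 (-0.0019) was left out. Fgf8 (ENSMUSG00000025219.13, chromosome 19, 45736798 to 45742915), a ligand of the primitive streak, had 203, 209 and 674 at day 3 and 389, 249 and 348 at day 5 in floxed libraries. Null libraries had 226, 177 and 299.5 at day 3 and 88.2, 119 and 109.6 at day 5. Day 3 values overlapped and day 5 values did not, and the interaction was -1.20 ± 0.53 (adjusted p = 0.330). Fgf8 was called in 1 leave-one-out fit, that without floxed day 3 replicate 3 (log2 interaction -1.77, adjusted p = 0.0373), the library that stood at 674. Of 15 tested FGF ligands limma and edgeR called 0, as did DESeq2, although 6 were below and 1 above 0 at an unadjusted p under 0.05. The list median was -1.05, against -0.77 without the libraries numbered 3 and -0.02 over all genes. The block called Fgf4, a ligand of the pluripotent epiblast, and Fgf18.

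Myc (ENSMUSG00000022346.14, chromosome 15, 61985391 to 61990374) had 176, 200.5 and 138 normalised reads in floxed libraries at day 3 and 477, 389 and 261 at day 5. Null libraries had 127, 131 and 79.6 at day 3 and 147, 120.0 and 68.6 at day 5. Every null library was below every floxed one of its day, with replicate 3 the lowest in each group. The interaction was -1.14 ± 0.42, not called without the block (adjusted p = 0.243) and called with it (adjusted p = 0.00637). Ribosome biogenesis genes were called neither by limma nor by edgeR, while DESeq2 called 5 of 50 and 15 were below 0 at an unadjusted p under 0.05. All 50 interactions were below 0, against 52.2% of all genes, with a median of -0.22. That count was 49 to 50 with any 1 library left out and 50 with either other scaling. The block called 9, among them the dyskerin gene Dkc1, the methyltransferase gene Fbl and the nucleolar chaperone Npm1, and 0 when the libraries numbered 3 were also left out. Dkc1, the member with the smallest p, had 5812, 5862 and 5399.8 at day 3 and 4666, 4126 and 4093 at day 5 in floxed libraries. Null libraries had 5534, 5344 and 5607 at day 3 and 3009.9, 2980.2 and 3098 at day 5. Its day 3 values overlapped, its day 5 values did not, and its interaction was -0.45 ± 0.09 (adjusted p = 0.0513).

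Of 27 polyamine and nucleotide synthesis genes, Odc1 was called. Floxed libraries had 27223, 28479.6 and 25287 normalised reads of Odc1 (ENSMUSG00000011179.7, chromosome 12, 17544794 to 17551505) at day 3 and 21922, 19738 and 20747 at day 5. Null libraries had 24989.7, 24621 and 21767 at day 3 and 12701, 12006 and 11564 at day 5. Null libraries were below floxed ones at each day, by more at day 5. Odc1 fell in both lines (-0.38 ± 0.07 in floxed and -0.97 ± 0.07 in null), and the interaction was -0.60 ± 0.10 (adjusted p = 0.0345). It was called in 3 of 12 leave-one-out fits (largest adjusted p = 0.0915, without floxed day 3 replicate 1). In this list 24 of 27 interactions were below 0 with a median of -0.33. The block called 13 below 0, including the spermidine synthase gene Srm and the folate enzyme gene Mthfd2, and Sat1, which starts polyamine breakdown, above 0. Without the libraries numbered 3 it called 5. Mtap, which salvages the methionine part of polyamine synthesis, was also called. It rose in floxed (0.56 ± 0.06) with 0.07 ± 0.06 in null (interaction -0.49 ± 0.09, adjusted p = 0.0345).

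Psat1, which makes serine from a glycolytic intermediate, was the called gene among 32 of the integrated stress and unfolded protein response. Floxed libraries had 7528, 6735 and 5363 normalised reads of Psat1 (ENSMUSG00000024640.9, chromosome 19, 15904678 to 15947337) at day 3 and 4906, 5146 and 5659 at day 5. Null libraries had 8459.8, 8442 and 6896 at day 3 and 3178, 3367 and 3574 at day 5. The lines overlapped at day 3, and at day 5 null libraries were lower without overlap. Psat1 fell in both lines, by 0.31 and by 1.23 on the log2 scale, with an interaction of -0.92 ± 0.16 (adjusted p = 0.0352). It was called in 3 of 12 leave-one-out fits (largest adjusted p = 0.0906, without null day 3 replicate 2). In this list 28 of 32 interactions were below 0 (25 with upper-quartile scaling), the median was -0.26, and the block called 12, all below 0. Among these were Atf4, the transcription factor of the response, the asparagine synthetase gene Asns and the tRNA synthetase genes Gars, Aars and Nars. Without the libraries numbered 3 the block called 6.

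Gldc, Bcat1, Slc1a4 and Aldh18a1 were further called genes with a negative interaction, chosen after their values were seen. Gldc, the glycine decarboxylase, had 5579, 5936 and 4930.0 normalised reads at day 3 and 5217, 4477 and 5536 at day 5 in floxed libraries. Null libraries had 5297, 5273 and 4778 at day 3 and 2524, 2170.5 and 2535 at day 5. The groups overlapped at day 3, and at day 5 the null values were the lowest. Its interaction was -0.98 ± 0.14 (adjusted p = 0.0302), called in 8 of 12 leave-one-out fits. Bcat1, a branched-chain aminotransferase, had 3848, 3349 and 2383 at day 3 and 3068, 2639 and 3549 at day 5 in floxed libraries. Null libraries had 4367, 4042 and 2798 at day 3 and 1382, 1444 and 1545 at day 5. They overlapped the floxed ones at day 3 and were below all of them at day 5 (interaction -1.30 ± 0.26, adjusted p = 0.0470). Slc1a4, a transporter of alanine and serine, had 1214, 1110.0 and 735 at day 3 and 964, 904 and 752 at day 5 in floxed libraries. Null libraries had 1848, 1849 and 1448 at day 3 and 672, 661 and 597 at day 5 (interaction -1.21 ± 0.24, adjusted p = 0.0457). Every null library was above the floxed ones at day 3 and below them at day 5, and the day 3 difference was the called one. Aldh18a1 rose in floxed (0.44 ± 0.10) and fell in null (-0.37 ± 0.10), from overlapping day 3 values to day 5 values of 2701, 3122 and 3182 and 1644, 1806 and 1994 (interaction -0.81 ± 0.14, adjusted p = 0.0345). EdgeR did not call Bcat1 or Slc1a4 (adjusted p = 0.0503 for each).

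Scd2, a stearoyl-CoA desaturase, was the called gene of 30 in cholesterol and fatty acid synthesis, a list whose median course was -0.95 in floxed and -1.31 in null on the log2 scale. It fell in both lines. Floxed libraries had 17637, 20179 and 16563 normalised reads of Scd2 (ENSMUSG00000025203.5, chromosome 19, 44293674 to 44306864) at day 3 and 9688, 8584 and 8776 at day 5. Null libraries had 26224, 26995 and 19482 at day 3 and 7144, 6519.7 and 5766 at day 5. At day 3 the ranges overlapped and at day 5 the null values were lower. The interaction was -0.89 ± 0.17 (adjusted p = 0.0451), called in 1 of 12 leave-one-out fits (largest adjusted p = 0.116, without floxed day 3 replicate 1). All 30 interactions of the list were below 0 (27 to 30 with 1 library left out), with a median of -0.37. The block called 14, among them the fatty acid synthase gene Fasn and the sterol sensor Insig1, and 5 without the libraries numbered 3. Fads1, Fabp5 and Dgat2 were further called genes with a negative interaction, chosen after their values were seen. Fads1, a fatty acid desaturase, fell by 0.20 in floxed and by 0.76 in null (interaction -0.57 ± 0.10, adjusted p = 0.0345). Fabp5, a fatty acid binding protein, rose from 560.5, 531 and 570.5 to 1490.2, 1746 and 2002 in floxed and from 530.3, 577 and 489 to 616, 940.2 and 800.5 in null (interaction -1.10 ± 0.20, adjusted p = 0.0366). Dgat2, which completes triglyceride synthesis, rose in floxed alone (interaction -1.14 ± 0.22, adjusted p = 0.0457; edgeR 0.0555).

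Sox2, a transcription factor of both pluripotent and neural progenitor cells, was the called gene in the naive pluripotency list of 20 and in the neural progenitor list of 20. Floxed libraries had 2442, 2156 and 2279 normalised reads of Sox2 (ENSMUSG00000074637.7, chromosome 3, 34650405 to 34652461) at day 3 and 3366, 3149.8 and 3591 at day 5. Null libraries had 2247, 1993 and 2045 at day 3 and 1949.7, 1955 and 2071 at day 5. The lines overlapped at day 3. Sox2 then rose in floxed (0.56 ± 0.07, adjusted p = 8.85e-05) and its null course of -0.07 ± 0.07 was not called, so that all null libraries were lower at day 5. The interaction was -0.63 ± 0.11 (adjusted p = 0.0345), called in 3 of 12 leave-one-out fits (largest adjusted p = 0.0865, without null day 5 replicate 2). Of the naive list 18 interactions were below 0 (16 to 19 with 1 library left out), with a median of -0.83, and the block called 10, all below 0. These included the orphan receptors Esrrb and Nr0b1, the naive factor Tfcp2l1 and the developmental pluripotency genes Dppa2, Dppa3 and Dppa5a. Without the libraries numbered 3 it called 8. Nr0b1, for example, had 97.8, 96.5 and 93.4 at day 3 and 492, 185 and 309.9 at day 5 in floxed libraries. Null libraries had 79.4, 76.3 and 92.1 at day 3 and 107, 29.1 and 57.9 at day 5 (interaction -2.19 ± 0.56, adjusted p = 0.109, with the block 7.60e-04). Of the neural progenitor list 16 were below 0 (median -0.59) and the block called 7, including Nes, Cdh2, Fabp7 and Hes5. The core and primed pluripotency list had a median of -0.21, no limma or edgeR call and 1 call by DESeq2. At an unadjusted p under 0.05 there were 3 of its 20 members, against 2412 of 17000 genes. With the block, Pou5f1, Utf1, Tdgf1, Zic2 and Foxd3 passed below 0 and Epcam above 0.

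Sfrp2 and Cyp26b1, which limit Wnt and retinoic acid signals, had null courses below the floxed ones. Floxed libraries had 1294, 1329.8 and 1248 normalised reads of Sfrp2 (ENSMUSG00000027996.13, chromosome 3, 83766321 to 83774316) at day 3 and 6021, 4918 and 9047 at day 5. Null libraries had 1541, 1358 and 1005 at day 3 and 1665, 1582 and 2209.7 at day 5. From overlapping day 3 values, Sfrp2 rose in floxed (2.32 ± 0.20), and its null course of 0.49 ± 0.20 was not called (interaction -1.83 ± 0.29, adjusted p = 0.0308). It was called in 6 of 12 leave-one-out fits (largest adjusted p = 0.0805, without floxed day 3 replicate 2) and overlaps Gm26771. Cyp26b1 (ENSMUSG00000063415.12, chromosome 6, 84571414 to 84593908), which degrades retinoic acid, had 6.78, 5.36 and 2.72 in floxed and 8.55, 5.36 and 8.94 in null libraries at day 3. At day 5 these were 829, 1321 and 1502 and 340.2, 332 and 401. It rose in both lines from a few reads, with every null library lower at day 5 (interaction -2.30 ± 0.43, adjusted p = 0.0383). Cyp26b1 was called in 2 of 12 leave-one-out fits (largest adjusted p = 0.0926, without null day 5 replicate 2) and not by edgeR (adjusted p = 0.0923). Sfrp2 was the sole call of 20 Wnt targets and modulators (16 below 0) and of 17 forebrain and eye field genes (12 below 0), and Cyp26b1 of 19 retinoic acid genes (12 below 0). The block added Cdx1, Apcdd1, Ascl2 and Lef1 to the Wnt list, Rax and Six3 to the forebrain list and Crabp2 to the retinoic acid list, each below 0. Cdx1, Rax and Six3 were at low levels, with at most 22.0, 29.3 and 23.9 normalised reads in any library. Without the libraries numbered 3 the block did not call them (adjusted p = 0.138, 0.0925 and 0.171). In that fit Sfrp2 was the only call of the Wnt and forebrain lists. T (ENSMUSG00000062327.10, chromosome 17, 8434423 to 8442496), the primitive streak factor, had 75.5, 98.7 and 67.1 at day 3 and 43.0, 333 and 88.2 at day 5 in floxed libraries. Null libraries had 48.9, 62.9 and 46.5 at day 3 and 19.2, 47.8 and 13.4 at day 5. Null libraries were lower at day 3, while floxed day 5 ran from 43.0 to 333 and overlapped the null values. The interaction was -1.58 ± 0.84 (adjusted p = 0.421, with the block 0.0447). Without the libraries numbered 3 the block did not call T (adjusted p = 0.216).

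Ccnd2 and Hmga2 rose in both lines, by less in null. Floxed libraries had 272, 172 and 462 normalised reads of Ccnd2 (ENSMUSG00000000184.12, chromosome 6, 127125162 to 127152193), the D-type cyclin of early cell cycle entry, at day 3 and 4562, 5052 and 7346 at day 5. Null libraries had 485, 323 and 522 at day 3 and 1440.0, 1392 and 1954 at day 5. The lines overlapped at day 3 and not at day 5, and the interaction was -2.45 ± 0.43 (adjusted p = 0.0345). It was called in 3 of 12 leave-one-out fits (largest adjusted p = 0.0915, without floxed day 3 replicate 1). Of 20 cyclins, CDKs and inhibitors it was the only call, with 13 below 0, and Ccnd1, Ccne1 and Cdkn1c passed below 0 and Cdkn1a above 0 with the block. Floxed libraries had 850.0, 666 and 916 of Hmga2 (ENSMUSG00000056758.14, chromosome 10, 120361275 to 120476469), a chromatin architectural protein of embryonic cells, at day 3 and 3314, 3498 and 3643 at day 5. Null libraries had 997, 573 and 517 at day 3 and 1101, 1116 and 1072 at day 5. The lines overlapped at day 3, and at day 5 every null library was below every floxed one (interaction -1.40 ± 0.27, adjusted p = 0.0451). Hmga2 was called in 2 of 12 leave-one-out fits (largest adjusted p = 0.0997, without floxed day 3 replicate 2) and overlaps 1700006J14Rik. DNA replication genes had no limma or edgeR call among 38, 4 by DESeq2, and 17 below 0 at an unadjusted p under 0.05. All 38 were below 0 (36 with upper-quartile scaling, 36 to 38 with 1 library left out) with a median of -0.22. The block called 7, among them the helicase genes Mcm5, Mcm6 and Mcm7 and the sliding clamp Pcna, and 0 without the libraries numbered 3.

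Emilin2, Mmp16, Lonrf2 and Rims1 completed the negative genes named by size. Emilin2 (ENSMUSG00000024053.10, chromosome 17, 71252172 to 71311978), an extracellular matrix glycoprotein, had 99.7, 90.1 and 150.5 normalised reads at day 3 and 964, 952 and 1484 at day 5 in floxed libraries. Null libraries had 188, 179 and 209 at day 3 and 348, 489 and 542 at day 5. They were above floxed at day 3 and below at day 5 without overlap (interaction -2.08 ± 0.32, adjusted p = 0.0308). Mmp16 (ENSMUSG00000028226.15, chromosome 4, 17852893 to 18119145), a membrane-bound matrix metalloproteinase, had 55.2, 52.5 and 60.8 at day 3 and 275, 264 and 375 at day 5 in floxed. Null libraries had 79.4, 92.4 and 124 at day 3 and 158, 208 and 184 at day 5, again higher at day 3 and lower at day 5 (interaction -1.50 ± 0.28, adjusted p = 0.0383). Lonrf2 (ENSMUSG00000048814.10, chromosome 1, 38793645 to 38836711), a RING finger protein, had 53.2, 51.5 and 68.9 at day 3 and 318, 226 and 399 at day 5 in floxed. Null libraries had 46.4, 42.8 and 43.8 at day 3 and 69.0, 53.6 and 67.7 at day 5, with a rise called in floxed alone (interaction -1.90 ± 0.31, adjusted p = 0.0316). Rims1 (ENSMUSG00000041670.15, chromosome 1, 22286251 to 22805994), an active zone protein of synapses, had 60.0, 51.5 and 64.4 at day 3 and 63.6, 73.7 and 87.3 at day 5 in floxed. Null libraries had 133, 95.05 and 119 at day 3 and 39.6, 31.5 and 60.6 at day 5, above floxed at day 3 and below it at day 5 (interaction -1.76 ± 0.35, adjusted p = 0.0470). They were called in 6, 2, 3 and 1 of 12 leave-one-out fits in that order, with adjusted p-values of up to 0.0805 (without floxed day 3 replicate 2), 0.0989, 0.0849 and 0.115 (each without floxed day 3 replicate 1). Rims1 was not called by edgeR (adjusted p = 0.0565). Krt42 and Accsl had larger interactions (-3.93 ± 0.71 and -2.91 ± 0.57) at low levels, with at most 30.6 and 32.3 normalised reads in any library.

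**Figure D2:**
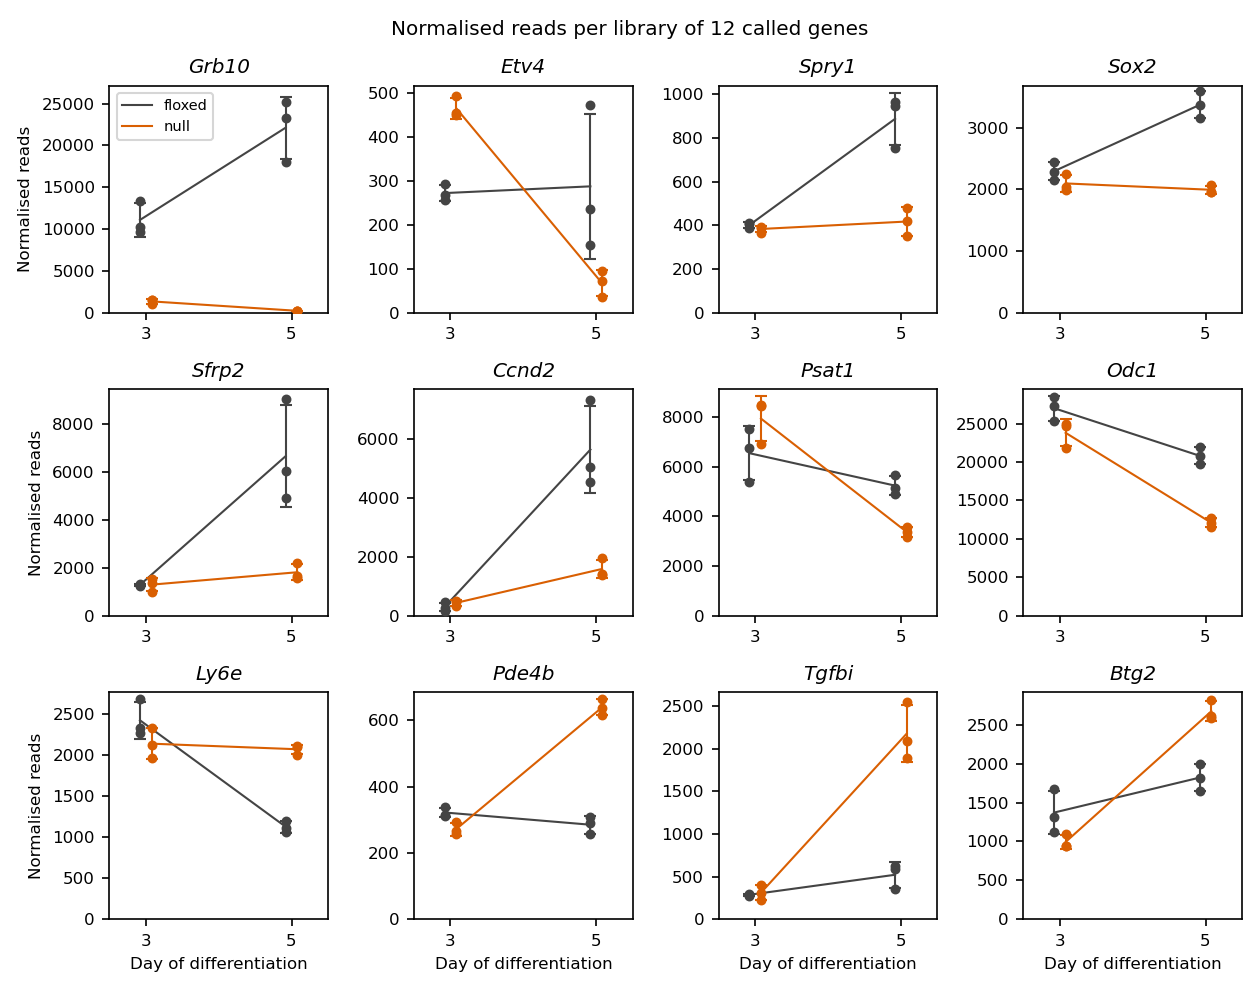
Normalised reads (linear y axes from 0) of 12 called genes at days 3 and 5 in floxed (dark) and null (orange) libraries, with points for the 3 libraries, lines through the means and bars of 1 SD. Null libraries lie below floxed ones at day 5 in the upper 8 panels and above them in the lower 4, without overlap.

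Pde4b and Ly6e were, with Grb10, the genes that stayed called whichever library was left out. Pde4b (ENSMUSG00000028525.16, chromosome 4, 102087543 to 102607259) encodes a phosphodiesterase that degrades cyclic AMP. Floxed libraries had 313, 314 and 339 normalised reads at day 3 and 309.5, 289.9 and 256 at day 5. Null libraries had 257, 265 and 294 at day 3 and 639, 664 and 616 at day 5. At day 3 they lay just below the floxed ones and at day 5 well above. Pde4b rose in null (1.23 ± 0.10, adjusted p = 4.10e-06), its floxed course of -0.18 ± 0.10 was not called, and the interaction was 1.41 ± 0.15 (adjusted p = 0.00276). Ly6e (ENSMUSG00000022587.14, chromosome 15, 74955051 to 74959905), a GPI-anchored surface protein induced by interferon, was named for this reason after its values were seen. Floxed libraries had 2326, 2682 and 2264 at day 3 and 1109.9, 1202 and 1064 at day 5. Null libraries had 2330.3, 2127 and 1959 at day 3 and 2094, 2006 and 2112 at day 5. It fell in floxed (-1.10 ± 0.09, adjusted p = 1.91e-06) and stayed near its level in null (-0.04 ± 0.09, not called), with an interaction of 1.06 ± 0.12 (adjusted p = 0.00458). The adjusted p reached at most 0.0188 for Pde4b and 0.0239 for Ly6e.

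Tgfbi, Afap1l2 and Fstl4 had null courses above the floxed ones. Floxed libraries had 283, 297 and 277 normalised reads of Tgfbi (ENSMUSG00000035493.9, chromosome 13, 56609523 to 56639562), a secreted matrix protein induced by TGF-beta, at day 3 and 627, 587 and 348 at day 5. Null libraries had 225, 305 and 399.7 at day 3 and 2097, 1897 and 2548 at day 5. It rose in both lines from overlapping day 3 values, and its interaction was 2.02 ± 0.32 (adjusted p = 0.0308). Floxed libraries had 242, 158 and 126 of Afap1l2 (ENSMUSG00000025083.17, chromosome 19, 56912361 to 57008228), a Src-binding adaptor, and 280.1, 399 and 210.4 at day 5. Null libraries had 118, 100.4 and 99.2 at day 3 and 596, 960.0 and 719 at day 5, lower than floxed at day 3 and higher at day 5 (interaction 2.04 ± 0.37, adjusted p = 0.0352). Fstl4 (ENSMUSG00000036264.9, chromosome 11, 52764634 to 53188538), a secreted follistatin-like protein, had 40.7, 33.2 and 43.5 at day 3 and 38.2, 53.6 and 34.0 at day 5 in floxed libraries. Null libraries had 37.9, 45.5 and 55.4 at day 3 and 227, 170.1 and 159.6 at day 5. It rose in null alone (interaction 1.90 ± 0.33, adjusted p = 0.0345). Tgfbi, Afap1l2 and Fstl4 were called in 5, 2 and 3 of 12 leave-one-out fits, with adjusted p-values of up to 0.0805 (without floxed day 3 replicate 2), 0.0915 and 0.0950 (both without floxed day 3 replicate 1). Tnfsf10, the death receptor ligand TRAIL, and Gm13404 had larger positive interactions than these at low levels, and were named after their values were seen. Floxed libraries had, for Tnfsf10, 2.90, 5.36 and 5.44 at day 3 and 11.1, 8.38 and 13.1 at day 5. Null libraries had 2.44, 1.34 and 3.58 at day 3 and 62.2, 65.2 and 78.4 at day 5, with the day 5 values apart from all others (interaction 3.27 ± 0.50, adjusted p = 0.0308).

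Among 21 p53 targets, Btg2 and Trp53inp1 were called, both above 0. Floxed libraries had 1122, 1315 and 1676 normalised reads of Btg2 (ENSMUSG00000020423.6, chromosome 1, 134075170 to 134079120), an antiproliferative gene, at day 3 and 1649, 1817 and 2000.0 at day 5. Null libraries had 943, 939.8 and 1095 at day 3 and 2620.0, 2586 and 2822 at day 5. They were the lower ones at day 3 and the higher ones at day 5 (interaction 1.01 ± 0.18, adjusted p = 0.0345). Floxed libraries had 7894, 8130.1 and 7425 of Trp53inp1 (ENSMUSG00000028211.11, chromosome 4, 11156431 to 11174379), a stress-induced protein of p53 signalling and autophagy, and 6939.6, 5475 and 4887 at day 5. Null libraries had 8212, 7789 and 8862 at day 3 and 10506, 10118 and 10889 at day 5. Its day 3 values overlapped, after which it fell in floxed and rose in null (interaction 0.80 ± 0.15, adjusted p = 0.0368). Both were called in 3 of 12 leave-one-out fits, with adjusted p-values of up to 0.0906 (without null day 3 replicate 2) and 0.0989 (without floxed day 3 replicate 1). In the list 14 interactions were above 0 (17 with upper-quartile scaling), the median was 0.13, and the block added Cdkn1a, the cyclin-dependent kinase inhibitor. Interactions below 0 numbered 7 as reported, 5 to 9 with 1 library left out and 9 without the libraries numbered 3.

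Ddx4 was the called gene of 15 in the germline list. It encodes the Vasa helicase of germ cells. Floxed libraries had 530.5, 417 and 486 normalised reads of Ddx4 (ENSMUSG00000021758.13, chromosome 13, 112598333 to 112652475) at day 3 and 219, 195 and 173 at day 5. Null libraries had 496, 398 and 449 at day 3 and 444, 433 and 565 at day 5. It fell in floxed (-1.28 ± 0.14, adjusted p = 2.09e-05) and not in null (0.10 ± 0.14), so that day 5 values stood apart (interaction 1.38 ± 0.20, adjusted p = 0.0308, called in 8 of 12 leave-one-out fits, largest 0.0711, without null day 3 replicate 2). Tdrd5 (ENSMUSG00000060985.15, chromosome 1, 156255296 to 156303664), a Tudor protein of the germ cell piRNA pathway that was named by size, had 595, 713 and 491 at day 3 and 218, 236 and 192 at day 5 in floxed. Null libraries had 605, 724 and 636 at day 3 and 569.7, 744 and 599 at day 5. It too fell in floxed alone (interaction 1.42 ± 0.21, adjusted p = 0.0308, called in 7 of 12 leave-one-out fits, largest 0.0805, without floxed day 3 replicate 2). Catsperg1 (ENSMUSG00000049676.14, chromosome 7, 29181321 to 29214035), an auxiliary subunit of the sperm calcium channel, had 106, 95.5 and 102 at day 3 and 27.9, 30.2 and 20.1 at day 5 in floxed. Null libraries had 94.1, 104 and 110.0 at day 3 and 87.0, 86.2 and 133 at day 5, close to floxed at day 3 and above it at day 5 (interaction 1.89 ± 0.31, adjusted p = 0.0308, called in 4 of 12 leave-one-out fits, largest 0.0849, without floxed day 3 replicate 1). In the germline list 9 interactions were above and 6 below 0, and the block added Tdrd1 and Mael above 0.

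Pdk4, Dnah11, Clic5 and Sema3e were the other positive genes named by size. Pdk4 (ENSMUSG00000019577.6, chromosome 6, 5483351 to 5496309), the kinase that shuts off pyruvate dehydrogenase, had 74.5, 64.3 and 58.0 normalised reads at day 3 and 44.6, 45.2 and 40.2 at day 5 in floxed libraries. Null libraries had 96.5, 60.2 and 85.8 at day 3 and 174, 156 and 275 at day 5, a rise in null alone (interaction 1.87 ± 0.34, adjusted p = 0.0352). Dnah11 (ENSMUSG00000018581.15, chromosome 12, 117877982 to 118199043), an axonemal dynein heavy chain, had 40.7, 44.0 and 40.8 at day 3 and 85.1, 101 and 61.1 at day 5 in floxed. Null libraries had 55.0, 44.2 and 43.8 at day 3 and 235, 326 and 313 at day 5, a steeper rise from overlapping day 3 values (interaction 1.65 ± 0.30, adjusted p = 0.0366). Clic5 (ENSMUSG00000023959.8, chromosome 17, 44188584 to 44280172), a chloride channel family protein, had 457, 508 and 346 at day 3 and 204, 241 and 146 at day 5 in floxed. Null libraries had 429, 348 and 399.7 at day 3 and 562, 460.2 and 480.5 at day 5, and the fall was called in floxed alone (interaction 1.51 ± 0.26, adjusted p = 0.0345). Sema3e (ENSMUSG00000063531.7, chromosome 5, 14025276 to 14256689), a guidance ligand of plexin D receptors, had 2179, 1692 and 2056 at day 3 and 1269.9, 875 and 744 at day 5 in floxed. Null libraries had 1599.6, 1388 and 1613 at day 3 and 2401, 2246 and 1564 at day 5, lower at day 3 and higher at day 5 (interaction 1.48 ± 0.27, adjusted p = 0.0352). Each was called in 2 or 3 of 12 leave-one-out fits, with adjusted p-values of up to 0.0989, 0.0966, 0.0915 and 0.0989 in that order (all without floxed day 3 replicate 1). Dnah11 overlaps Cdca7l on the opposite strand.

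Acadl, Acot1, Nnt, Pgm1 and Pla2g16 were further called genes with a positive interaction, chosen after their values were seen. Acadl, which starts the breakdown of long-chain fatty acids, had 1017, 1001 and 808 normalised reads at day 3 and 469, 513 and 512 at day 5 in floxed libraries. Null libraries had 1073, 1082 and 902 at day 3 and 990.1, 949.5 and 852 at day 5, with a fall called in floxed alone (interaction 0.78 ± 0.15, adjusted p = 0.0457). Acot1, an acyl-CoA thioesterase, fell in floxed alone from 905, 1019 and 863 to 593, 638 and 544 (interaction 0.69 ± 0.13, adjusted p = 0.0383), and reads shared with its close paralogs make this value uncertain. Nnt, the mitochondrial transhydrogenase, fell in floxed alone from 2619.6, 2328 and 2353 to 1706, 1645 and 1516 (interaction 0.63 ± 0.11, adjusted p = 0.0345). Pgm1, a phosphoglucomutase, fell in both lines, by 1.71 in floxed and by 0.88 in null (interaction 0.83 ± 0.13, adjusted p = 0.0308). Pla2g16, a phospholipase, fell in floxed and rose in null (interaction 0.998 ± 0.14, adjusted p = 0.0302, called in 7 of 12 leave-one-out fits). Acadl, Acot1, Nnt and Pgm1 were called in 1, 2, 3 and 4 of those fits. Pgm1 overlaps Itgb3bp on the opposite strand.

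The interferon response, epithelial junction and basement membrane lists had no limma call, and most of their members were above 0. Of 28 interferon response genes, 26 were above 0 (1 to 6 below 0 with 1 library left out), with a median of 0.58. Limma and edgeR called 0, DESeq2 called 2, and 8 were above 0 at an unadjusted p under 0.05. H2-K1 (ENSMUSG00000061232.15, chromosome 17, 33996017 to 34000347), a class I antigen presenting molecule, had 1510.2, 1616 and 1271 normalised reads at day 3 and 659.6, 716 and 554 at day 5 in floxed libraries. Null libraries had 2490.4, 2609 and 2309.5 at day 3 and 1675, 1779 and 2034 at day 5. Null libraries were higher at both days, and the interaction was 0.75 ± 0.16 (adjusted p = 0.0634, with the block 0.0126, called in 2 of 12 leave-one-out fits). The block also called Ifit1, Ifit3, Ddx60 and Bst2. Of 24 epithelial junction genes, 19 were above 0 (14 to 22 with 1 library left out), with 0 limma and edgeR calls, 2 by DESeq2 and 3 above 0 at an unadjusted p under 0.05. Ocln (ENSMUSG00000021638.12, chromosome 13, 100496507 to 100552718), the tight junction protein occludin, had 530.5, 713 and 573 at day 3 and 371, 494 and 351 at day 5 in floxed libraries. Null libraries had 906, 922 and 1020.2 at day 3 and 1125, 1412 and 1231 at day 5. Null libraries were higher at both days and by more at day 5 (interaction 0.98 ± 0.20, adjusted p = 0.0513, with the block 0.00413, called in 1 of 12 leave-one-out fits). The block also called Epcam, Cldn3, Cldn4, Krt8 and Spint2. Of 14 basement membrane genes 13 were above 0 (1 to 5 below 0 with 1 library left out), with a median of 0.22. None was called by limma, edgeR or DESeq2, and 3 were above 0 at an unadjusted p under 0.05. The block called Lamb2, a laminin chain (0.71 ± 0.22, adjusted p = 0.170, with the block 0.00488).

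Across all 47 lists, the lowest median was that of the FGF ligands (-1.05). Without the libraries numbered 3, forebrain and eye field (-1.16), midbrain and hindbrain (-0.79) and naive pluripotency (-0.78) lay below the FGF ligands (-0.77). The plot of list members places the 14 called genes among the others. In the mitosis and spindle list 23 of 28 were below 0, 18 with upper-quartile scaling, with a median of -0.09, and the block called Ccna2 below 0 (adjusted p = 0.0300). Neither 14 Hoxa and Hoxb genes nor 28 other acetyltransferases and deacetylases had a call by limma with or without the block, by edgeR or by DESeq2, with 0 and 4 at an unadjusted p under 0.05. Of 30 SAGA and ATAC subunits limma and edgeR called 0 and DESeq2 2, with 5 at an unadjusted p under 0.05 and a median of -0.07. The block called Kat2b above 0 and Taf5l and Tada2b below. The feeder fibroblast list had a median of -0.59, no limma or edgeR call, 2 by DESeq2 and 3 at an unadjusted p under 0.05. The block called Fbln2, Serpinf1 and Loxl1, each below 0 (adjusted p = 0.0126, 0.0263 and 0.0306). Without the libraries numbered 3 it called 0 of this list.

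**Figure D3:**
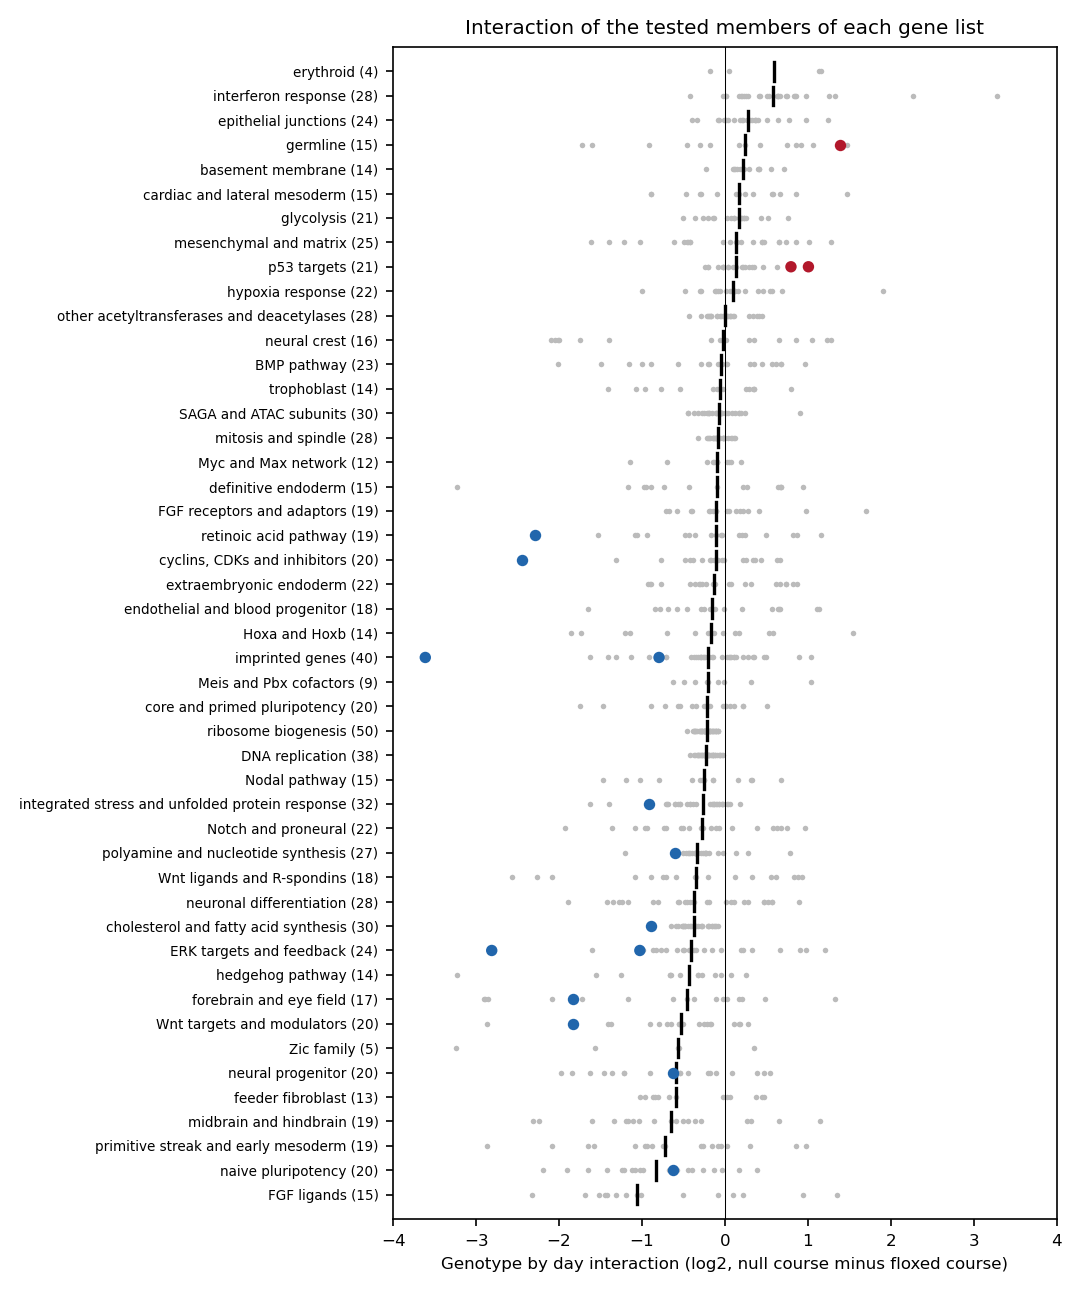
Log2 genotype by day interaction of every tested member of the 47 gene lists (number tested in brackets), with black bars at list medians. Members called below 0 are blue and above 0 red. Cholesterol and fatty acid synthesis, ribosome biogenesis and DNA replication members all lie below 0 under the size factors of the deposited values.

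The number of called genes depended on single libraries. It was 3, 5 and 115 without floxed day 3 replicates 1, 2 and 3, and 45, 91 and 16 without floxed day 5 replicates 1, 2 and 3. Leaving out null day 3 replicates 1, 2 and 3 in turn gave 3, 4 and 58 genes. The same for null day 5 gave 9, 3 and 19. The plot of calls by analysis sets these beside the block and the count tests.

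**Figure D4:**
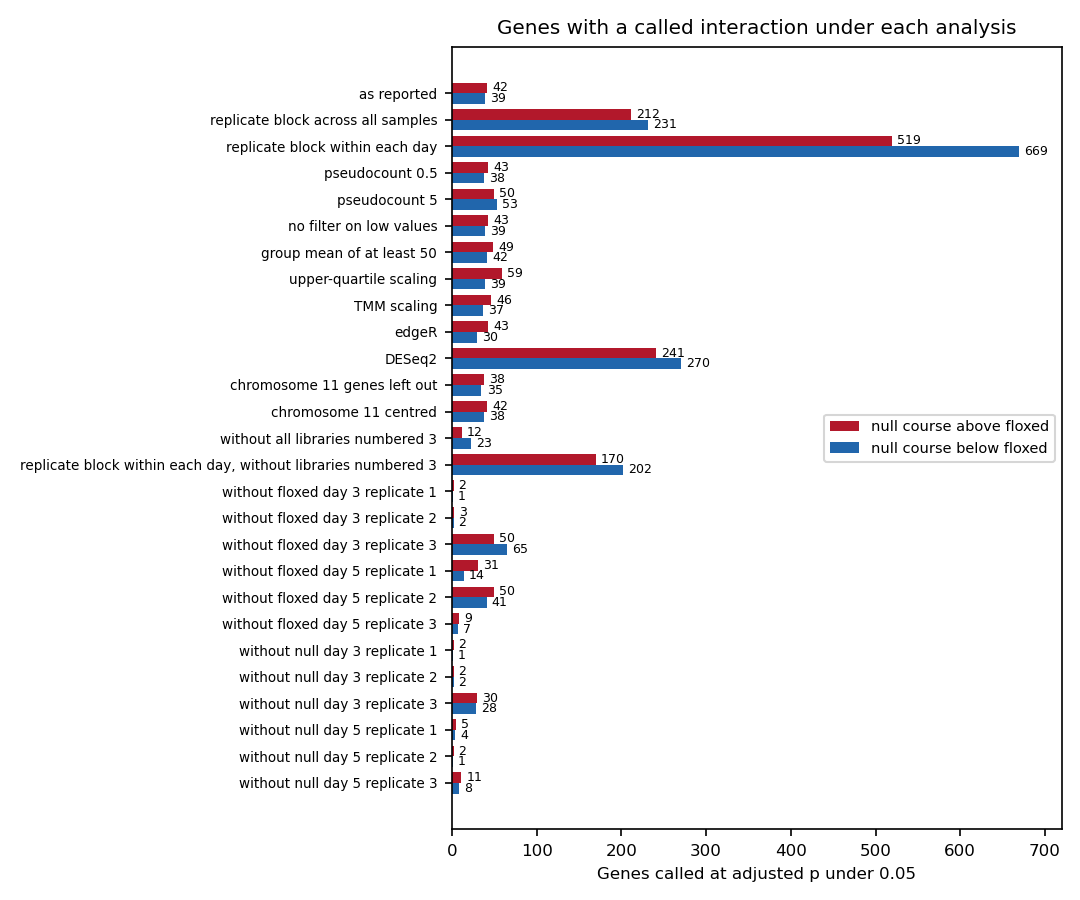
Genes called at an adjusted p under 0.05 (x axis) with a positive (red) or negative (blue) interaction under the reported analysis and each alternative. Bars run from 1 to 669, with the highest for the replicate block within each day and the lowest when single libraries were left out.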

How the data were processed

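RNA was sequenced from 12 samples, 3 for each of 4 groups, taken from the labels. The deposited values are a signal, read counts per gene that the authors divided by 1 size factor per library. Per the submitters' processing notes, build mm10 was used, and the tools listed are HTSeq 0.6.0, DESeq 1.16.0, TopHat2 2.0.10 and CASAVA 1.8.2. Per the labels' protocols the kit was a stranded total RNA kit, and strand use in counting and any filter on listed genes are not given in the sources used here. Positions come from a GENCODE annotation of GRCm38, in which 18199 of 18269 identifiers matched with version ignored (12740 with the same version) and 70 did not.

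Values were analysed as log2(value + 1) over genes reaching a mean of 10 in some group, so that log2 differences understate the change of low genes. The 4 group means were fitted in limma 3.58.1 (R 4.3.3) with an intensity trend, with 8 residual and 5 prior degrees of freedom, and p-values were adjusted by Benjamini-Hochberg over all 17000 genes. Interactions are given as log2 ± SE and values per library. The low values gave whole reads for 100% of values (tolerance 0.01), and edgeR 4.0.16 and DESeq2 1.42.0 were run on these reads as alternatives and called 73 and 511 genes. Recovered depth was 18022071 to 29446068 reads a library, and no 2 libraries of a group agreed within sampling noise. The pipeline was tested on simulated data. All value columns were used.

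Replicate numbers come from the titles. Deviations from group means correlated between same-numbered floxed and null libraries at 0.270 to 0.372 at day 3 and at 0.247 to 0.424 at day 5. Between differently numbered ones they reached -0.0175 and 0.0268 at most. Across days within a line, same-numbered libraries correlated at 0.0814 to 0.214 in floxed and 0.123 to 0.282 in null. Differently numbered ones reached at most 0.124 and 0.0521. The numbers were taken to pair libraries within a day for the block, and a pairing across days may hold as well. Alternatives were this block, a block across all samples, other pseudocounts, filters and scalings, chromosome 11 left out or centred, the count tests, and leaving out libraries. Leaving out the libraries numbered 3 together with the block was chosen after seeing the data.

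Named by rule were Kat2a, Kat2b, Myc, Fgf5, Fgf8, Dusp6, Spry4 and T whatever their result, the 10 most positive and 10 most negative called genes whose highest group mean reached 100.0 and that had no clone-type name, and up to 4 called members of each list. The rule allowed, but did not require, naming the member with the smallest p of a list without a call. Other genes, including members called with the block alone, were named after their values were seen. The members and lists were chosen with earlier results of these data known. Promoters came from RefSeq on GRCm38.p6.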

Additional observations from a re-analysis of the deposited data

Results flagged for a closer look

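Each of the following genes had a course from day 3 to day 5 that differed between the lines by the test of the difference itself (limma adjusted p under 0.05), and each value is the course in null minus the course in floxed on the log2 scale. Below 0, the imprinted gene Grb10 had -3.61 and Igf2r -0.79. Among genes of FGF signalling Etv4 had -2.81 and Spry1 -1.03. The developmental regulators Sfrp2 and Cyp26b1 had -1.83 and -2.30, and Sox2 had -0.63. Ccnd2 and Hmga2, which act in proliferating embryonic cells, had -2.45 and -1.40. The matrix genes Emilin2 and Mmp16 had -2.08 and -1.50, and Lonrf2 and Rims1 had -1.90 and -1.76. The metabolic enzymes Psat1, Scd2 and Odc1 had -0.92, -0.89 and -0.60.

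Above 0, Pde4b had 1.41, Tgfbi 2.02, Afap1l2 2.04 and Fstl4 1.90. The p53 targets Trp53inp1 and Btg2 had 0.80 and 1.01. Genes known from germ cells followed, with 1.38 for Ddx4, 1.42 for Tdrd5 and 1.89 for Catsperg1. Pdk4 had 1.87, Dnah11 1.65, Clic5 1.51 and Sema3e 1.48.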

How the results depend on the processing

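Each of the 81 genes kept the sign of its log2 interaction under every alternative that gave it a value, which were 78 of them with a group mean of at least 50, 78 with DESeq2 and 73 without chromosome 11 genes. All of these reuse the libraries by which the genes were chosen, so the kept sign is no independent check. Same-numbered libraries deviated together within a day and, within a line, also across days. The replicate block within each day called 1188 genes (519 positive, 669 negative), or 372 (170 and 202) without the libraries numbered 3, an analysis chosen after seeing the data. The replicate block across all samples called 443 (212 and 231). Without the libraries numbered 3 and with no block there were 35 (12 and 23). DESeq2 called 511 (241 and 270) and edgeR 73 (43 and 30), the latter including all 42 positive and 30 of the 39 negative genes. Leaving out 1 library at a time gave 3 to 115 genes, 2 to 50 positive and 1 to 65 negative. A pseudocount of 0.5 gave 81, one of 5 gave 103, no filter on low values 82, a group mean of at least 50 gave 91, upper-quartile scaling 98 and TMM scaling 83. Without chromosome 11 genes 73 were called, and with that chromosome centred 80. The median interaction of all genes was -0.02, 0.02 with upper-quartile and 0.005 with TMM scaling. Of the genes named whatever their result, the Fgf5 interaction, 0.22 as reported, ran from -0.11 (floxed day 5 replicate 2 left out) to 0.52 with single libraries left out and was -0.0019 with null day 5 replicate 1 left out. The cause was not tested. Depth limits the values of genes at a few reads, such as Krt42, Accsl and Tnfsf10, and Cdx1, Rax, Six3, Shh and Fgf18, which the block alone called. The limits are 1 line per genotype, 3 libraries a group and unstated strand use, with 12 called genes overlapping another gene on the opposite strand.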

Other observations

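On the linear scale of normalised reads the sign of the difference between courses was opposite to the log2 interaction for 1 of the 81 genes. Evpl, which encodes a cross-linked envelope protein of epithelia, had 380, 351 and 396 normalised reads in floxed libraries at day 3 and 98.7, 81.3 and 65.5 at day 5. Null libraries had 549.9, 628 and 655 and then 285, 317 and 282. It lost more reads in null but a smaller share of them.

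Genes of the Nodal pathway, which keeps epiblast competent for the primitive streak, had no limma, edgeR or DESeq2 call among 15, while 2 were above 0 at an unadjusted p under 0.05. The list median was -0.26 and 11 were below 0. The block within each day called the ligand Nodal, its coreceptor Tdgf1 and the inhibitors Lefty1 and Lefty2, all below 0, chosen here after their values were seen. Of 22 Notch and proneural genes none was called by limma, edgeR or DESeq2, with 2 above and 3 below 0 at an unadjusted p under 0.05. Genes that passed with the block included the ligand Jag1 and the targets Hes1, Hes5 and Nrarp below 0, and Jag2 and Hes6 above 0. Of 14 hedgehog genes 12 were below 0, with no limma or edgeR call, 1 by DESeq2 and 4 below 0 at an unadjusted p under 0.05, and the ligand Shh was among those called with the block. Chromosome 11 held 8 of the 81 called genes (9.88%) and 7.83% of those tested.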
